A study of Mus musculus with 4 samples.

Results

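Most of the 48 genes described here encode proteins of the nucleolus that cut, modify and fold the ribosomal RNA precursor. Most are parts of the small-subunit processome or of the small nucleolar ribonucleoproteins (snoRNPs). The late small-subunit factors among them also act outside the nucleolus, and *Thumpd1* encodes an adaptor of NAT10 for tRNA. The 48 were chosen by name, under the heading of pre-rRNA processing and modification factors that work beside NAT10. The rule uses no measured value, but it was set with earlier results of these data known. All 48 were found among the 53465 genes of the deposited expression table, and all 48 were among the 20116 genes with a mean of at least 0.1 FPKM (fragments per kilobase of exon, scaled to sequencing depth) that entered the test. NAT10 is the acetyltransferase that makes N4-acetylcytidine (ac4C) in RNA, and the comparison asks what the mRNAs of its nucleolar partners do when *Nat10* is knocked down. RNA from mouse female germline stem cells (FGSCs), a cultured line labelled as derived from ovary, was sequenced as Long RNA-seq. One group carried a control shRNA (shNC) and the other an shRNA against *Nat10* (shNAT10), each with libraries 1 and 2, so 4 libraries in all and n = 2 per group throughout. Where the values of a group are given as a pair, library 1 stands before library 2. According to the study's methods, the shRNAs were delivered by lentivirus into the cultured cells, the cells were kept under antibiotic selection, and the replicates are biological. Strain, age of the donor animals and the clonality of the line are not given in the labels.

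Ribosomal RNA of the small subunit, and most rRNA of the large subunit, is cut from a single long precursor that RNA polymerase I makes in the nucleolus. The small-subunit processome is a large assembly of proteins and the U3 snoRNA that gathers on the 5′ end of this precursor while it is still being made. Box C/D snoRNPs add methyl groups to the ribose of chosen nucleotides and box H/ACA snoRNPs turn chosen uridines into pseudouridines. NAT10 sits in the processome, acetylates cytidines of 18S rRNA, and with the adaptor THUMPD1 acetylates tRNA.

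*Nat10* was checked first, since it is the target of the shRNA. It lies at chr2:103721256-103761270 (minus strand, GRCm38) and measured 7.79 and 5.42 FPKM (shNC) against 2.95 and 3.04 FPKM (shNAT10), giving a log2 fold change of -1.09 ± 0.21 (SE), 95% interval -1.63 to -0.55 and adjusted p = 0.123 by limma. Both shNAT10 libraries were below both shNC libraries, the mean fell by 54.6%, and the adjusted p by limma-voom was 1.65e-05. The change ranged from -1.35 without shNC-2 to -0.83 without shNC-1, and it no longer passed the call rule given below without shNAT10-1 (-1.07) or without shNAT10-2 (-1.11). The study's supplement lists 3 shRNA target sequences in *Nat10*, shown here because a match to a nucleolar factor would matter for its values, in lower case since no base is singled out.
*Nat10* target 1 (chr2:103731978-103731998): ttgctgttcacccagattatc
*Nat10* target 2 (chr2:103754169-103754189): agagtgggaccttgaacttaa
*Nat10* target 3 (chr2:103734449-103734469): gcagtggagaagtggcttaat
They lie on the minus strand in coding exons 18, 4 and 14 of the annotated *Nat10* transcript that holds them all. None (0) of the 249 annotated transcripts of the 48 genes held any of the 3 sequences, and the longest run shared with one of them was 10, 11 and 12 bases. The labels do not say which of these shRNAs the libraries carried.

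The libraries held 14902260 (shNC-1), 13028821 (shNC-2), 11057754 (shNAT10-1) and 13771245 (shNAT10-2) fragments on genes, recovered from the deposited FPKM. Each of the 48 genes had at least 109 fragments in every library, so none was near the floor of 3 fragments, which covers counting error only. Loci where rRNA or repeat reads map, a set of 360 annotated rRNA genes with *Gm42418*, *Gm26917*, *CT010467.1*, *Gm23935* and *AY036118*, took 45.7% and 35.6% of the fragments in shNC and 23.7% and 25.6% in shNAT10. The deposited FPKM already carry a median-ratio scaling, since median-ratio factors computed from them were 1.00 in each library. The labelled cell type was set against marker lists. Of 14 germline markers, 7 were at 0 in all libraries, among them *Dazl*, *Pou5f1* and *Dppa3*, and *Ddx4* had 2 fragments in all. The summed germline level was 16.9 and 28.6 in shNC and 31.3 and 37.9 in shNAT10 FPKM, most of it *Ifitm3* (fragilis), which ranged from 9.29 to 33.6 FPKM over the libraries, and of the 3 germline markers tested *Etv5* (-0.84) was called lower. Of 9 pan-leukocyte markers all were expressed, with a summed level of 379 and 404 in shNC and 331 and 342 in shNAT10, and 5 were called lower in shNAT10. Mast cell markers summed to 322 and 332 in shNC and 330.1 and 325 in shNAT10, of which *Cpa3* made up most, while *Fcer1a* and *Tpsb2* were at 0. Of the 6 mast cell markers tested, *Kit* (-0.60 on the log2 scale), *Gata2* (-0.33) and *Mitf* (-0.39) were called lower and *Ms4a2* (2.12) higher in shNAT10. Fibroblast and stroma markers summed to 54.3 and 47.4 in shNC and 65.2 and 55.6 in shNAT10 with 3 of the 7 tested called higher, *Col3a1* (0.98), *Pdgfra* (0.83) and *Thy1* (0.76). Most of this sum was *Dcn* (0.090), which was not called. The granulosa list summed to 6.74 and 5.13 in shNC and 7.89 and 7.48 in shNAT10 with *Fshr* and *Foxl2* at 0, and the oocyte list to 0.504 and 0.958 in shNC and 0.835 and 0.838 in shNAT10 with 5 of 9 markers at 0. Most defining germline markers were thus at or near 0 in these libraries. The study also examined germline markers in its cells by RT-PCR and immunofluorescence, which were not analysed here, and the cells are called FGSCs here as the labels do.

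The nucleolar factors covered a wide range of levels, from a mean of 1.56 FPKM (*Dcaf13*) to 163 FPKM (*Npm1*), with a median of 16.9 FPKM against 1.75 FPKM over all genes tested. FPKM is per length, and the lengths that turn these values into whole fragments join all annotated exons of a gene, from 924 bases (*Imp3*) to 11955 (*Wdr12*) over the 48. The order of the levels therefore rests on these lengths as well, and *Ncl*, below *Npm1* in FPKM, had 65541 fragments in all against 22171. *Npm1*, which encodes nucleophosmin, an abundant histone and ribosomal protein chaperone of the granular nucleolus, measured 160.2 and 184 FPKM (shNC) against 163 and 144 FPKM (shNAT10). *Ncl*, which encodes nucleolin, an RNA-binding protein of the dense nucleolar regions, measured 130.3 and 123 FPKM (shNC) against 123 and 124 FPKM (shNAT10). *Nhp2*, a core protein of box H/ACA snoRNPs, came next with 76.8 and 78.0 FPKM (shNC) against 104 and 98.0 FPKM (shNAT10). These 3 stood apart from the rest: the next, *Pes1* of the large-subunit pathway, measured 58.3 and 59.6 FPKM (shNC) against 58.0 and 59.5 FPKM (shNAT10). *Utp3*, a processome protein, measured 53.2 and 53.3 FPKM (shNC) against 54.4 and 53.7 FPKM (shNAT10). Each of these 5 was below the one before it in every library. The next 3, *Wdr36*, *Wdr43* and *Wdr75*, had means of 46.6, 46.0 and 44.2 FPKM, and their libraries overlapped. At the lower end, *Dcaf13*, *Nol11*, *Bms1*, *Utp15*, *Imp4*, *Nol6* and *Nol10* had means from 1.56 to 3.98 FPKM.

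**Figure D1:**
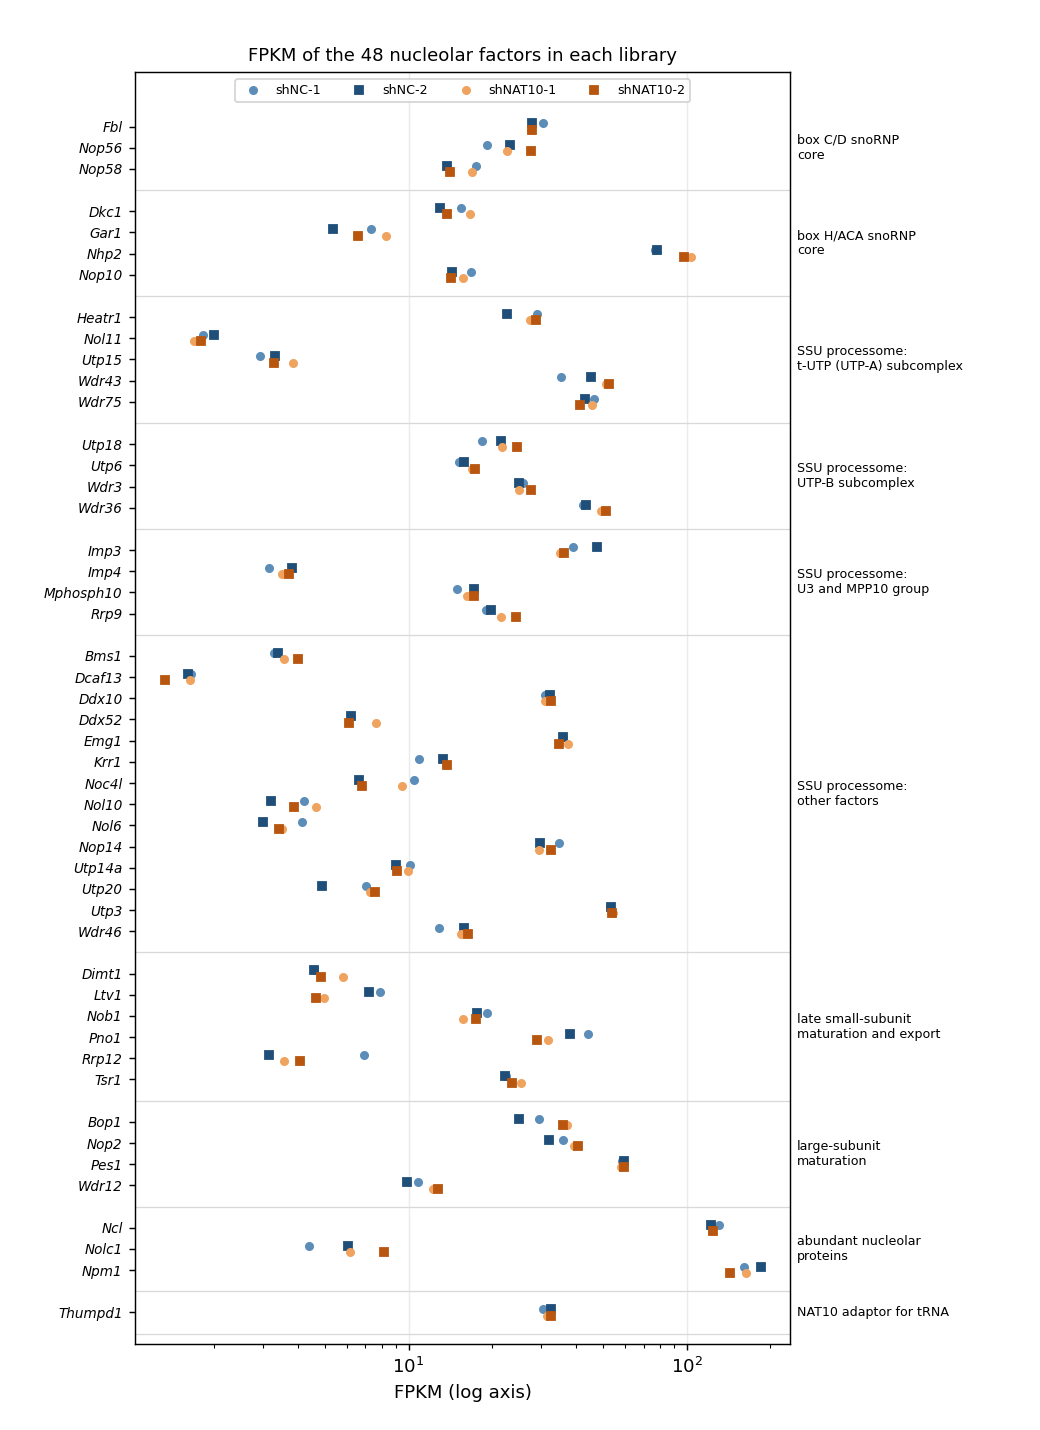
FPKM of each of the 48 genes (vertical axis, grouped by role) on a log axis, 1 point per library, shNC in blue and shNAT10 in orange. *Npm1* and *Ncl* lie farthest right, and for most genes the blue and orange points interleave.

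The 48 genes did not all move one way. Their log2 fold changes were above 0 for 30 and below 0 for 18, against 10160 and 9956 over all genes tested. With the study's threshold as call rule (over 1.2-fold and p at most 0.05 before adjustment), 4 of 48 were called higher in shNAT10 (*Nhp2*, *Bop1*, *Wdr43* and *Wdr12*), where 8.41% of all genes tested were called higher. Under the same rule 2 of 48 were called lower (*Ltv1* and *Pno1*), where the background was 7.83%. These counts are 8.33% and 4.17% of the 48, near or under the shares over all genes, and 42 of 48 were not called. When the test was limited to genes with a mean of at least 1 FPKM, which all 48 have, 3 of 48 were called higher (background 10.9%) and 2 lower (background 11.1%). With limma without the trend, 0 were called higher (background 7.64%) and 1, *Ltv1*, lower (background 6.04%). None (0 of 48) reached an adjusted p under 0.05 by limma, which 0.437% of all genes did, while 7 of 48 had an unadjusted p under 0.05 (background 16.6%). With limma-voom on the recovered fragments, 6 were called higher (background 10.1%) and 2 lower (background 9.34%), and 5 reached an adjusted p under 0.05 (*Nhp2*, *Bop1*, *Wdr43*, *Ltv1* and *Pno1*, background 7.87%). The exact permutation test of 2 against 2 libraries cannot go below p = 0.3333, so it passes no single gene. In bulk RNA, fewer cells that use a gene and less of its RNA per cell cannot be told apart.

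The median log2 fold change was 0.057 over the 48 genes and 0.0054 over all genes tested. Of the 48 changes, 41 were within 0.30 of 0 on the log2 scale, and the median size was 0.14, against 0.30 over all genes and 0.22 over the 12138 genes with a mean of at least 1 FPKM. The range ran from -0.64 (*Ltv1*) to 0.45 (*Nolc1*, not called). Both shNAT10 libraries were above both shNC libraries for 16 of 48 genes (background 23.9%) and below them for 6 of 48 (background 24.1%), and the groups overlapped for 26. The calls depended on the scaling. Scaled to the fragments outside the rRNA-related loci, which moves the median of all genes to 0.058, 7 of the 48 were called higher and 2 lower (over all genes, 2031 higher and 1234 lower, against 1691 and 1576). The summed level of the 48 genes was 1267 and 1269 in shNC and 1317 and 1298 in shNAT10 FPKM, with both shNAT10 sums above both shNC sums. Abundant genes weigh most in such a sum. From shNC to shNAT10 the mean rose from 77.4 to 101 FPKM for *Nhp2* and from 40.2 to 51.8 for *Wdr43*. For *Npm1* it fell from 172 to 153.

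**Figure D2:**
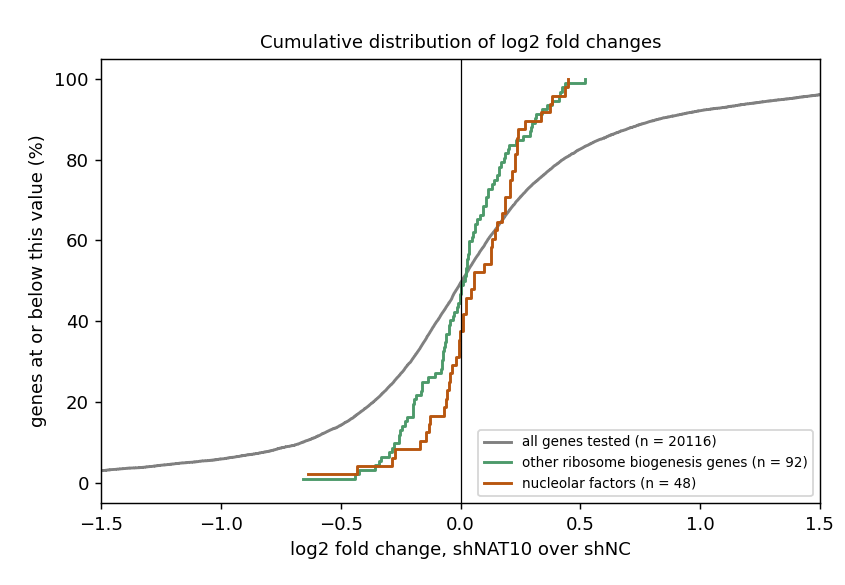
Cumulative share of genes (vertical axis, %) at or below each log2 fold change of shNAT10 over shNC (horizontal axis), for the 48 nucleolar factors, 92 other ribosome biogenesis genes and all 20116 genes tested. Both ribosome lists are steeper than the curve of all genes around 0, and the medians were 0.057, 0.016 and 0.0054.

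Of the 4 genes for core proteins of box H/ACA snoRNPs, 1 was called higher (background 8.41%) and 0 lower (background 7.83%). *Nhp2* rose, with 76.8 and 78.0 FPKM (shNC) against 104 and 98.0 FPKM (shNAT10), giving a log2 fold change of 0.38 ± 0.081 (SE), 95% interval 0.17 to 0.60 and adjusted p = 0.142 by limma. Both shNAT10 libraries were above both shNC libraries, which differed from each other by less than the SE. *Nhp2* was called under 14 of 15 alternatives, all but limma without the trend, and its adjusted p with limma-voom was 0.0310. *Dkc1*, the pseudouridine synthase of the complex, measured 15.4 and 13.0 FPKM (shNC) against 16.6 and 13.8 FPKM (shNAT10), giving a log2 fold change of 0.10 ± 0.15 (SE), 95% interval -0.29 to 0.48 and adjusted p = 0.780 by limma. Its groups overlapped, with shNC-1 and shNAT10-1 the higher library of each group. *Gar1* and *Nop10*, the small partners of the synthase, had log2 fold changes of 0.24 (-0.31 to 0.78) and -0.050 (-0.38 to 0.28), the 95% interval in parentheses here and below, and their groups overlapped as well. The ratio of *Nhp2* to *Dkc1* FPKM within a library was 4.98 and 5.99 in shNC and 6.25 and 7.10 in shNAT10.

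No core protein of box C/D snoRNPs was called. *Fbl*, which encodes the methyltransferase fibrillarin, measured 30.4 and 27.7 FPKM (shNC) against 27.6 and 27.7 FPKM (shNAT10), giving a log2 fold change of -0.070 ± 0.090 (SE), 95% interval -0.31 to 0.17 and adjusted p = 0.734 by limma. Its shNAT10 libraries were just below shNC-2. *Nop56* and *Nop58*, the paired scaffold proteins that hold the guide RNA, changed by 0.24 (-0.16 to 0.64) and -0.0036 (-0.44 to 0.43) on the log2 scale. For *Nop58* the number 1 library of each group was the higher, and for *Nop56* the number 2 library, and the groups of both genes overlapped. *Fbl*, *Nop56* and *Pes1* have 2, 3 and 2 near-identical copies elsewhere among the annotated transcripts (at least 95% identity over 300 bases), so reads could have been split or lost there.

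In the t-UTP (UTP-A) group, the processome proteins that bind the precursor first and are also tied to its transcription, 1 of 5 genes was called higher (background 8.41%) and 0 lower (background 7.83%). *Wdr43* rose, with 35.3 and 45.2 FPKM (shNC) against 51.3 and 52.4 FPKM (shNAT10), giving a log2 fold change of 0.38 ± 0.14 (SE), 95% interval 0.0048 to 0.75 and adjusted p = 0.297 by limma. Both shNAT10 libraries were above both shNC libraries, but the difference of shNC-1 minus shNC-2 was -0.36 on the log2 scale, nearly as large as that between the groups. The call was lost without shNC-1 (0.20), without shNAT10-1 (0.39), without shNAT10-2 (0.36), without a filter on low values and without the trend, and it held under 10 of 15 alternatives. *Heatr1*, the largest protein of the group, measured 29.0 and 22.6 FPKM (shNC) against 27.3 and 28.6 FPKM (shNAT10), giving a log2 fold change of 0.13 ± 0.14 (SE), 95% interval -0.25 to 0.50 and adjusted p = 0.696 by limma. One library, shNC-2, was below the other 3, and without shNC-1 the change was 0.30 and passed the rule. *Utp15*, *Wdr75* and *Nol11* changed by 0.19 (-0.23 to 0.60), -0.046 (-0.30 to 0.20) and -0.13 (-0.57 to 0.31), and of these only *Nol11* had groups that did not overlap, with shNAT10 below.

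The 4 genes of the UTP-B group, an elongated complex rich in WD40-repeat proteins, all had values above 0 and none was called. *Wdr36* changed by 0.23 (0.022 to 0.43) with an adjusted p = 0.267 by limma. Its unadjusted p passed the threshold and its fold change was under 1.2. Its libraries were 42.5 and 43.3 FPKM (shNC) against 49.3 and 51.1 FPKM (shNAT10), without overlap. *Utp18* and *Utp6*, with 0.22 (-0.11 to 0.55) and 0.15 (-0.086 to 0.38), did not overlap between groups either, and *Wdr3*, with 0.045 (-0.20 to 0.29), did. Scaled to fragments or to the FPKM total outside rRNA-related loci, *Wdr36* passed the rule.

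In the U3 and MPP10 group 0 of 4 genes were called by limma. *Rrp9*, a protein of the U3 snoRNP itself, changed by 0.23 (-0.038 to 0.50) and both its shNAT10 libraries were above shNC. It passed the rule under quantile normalization (0.27) and when scaled to fragments outside rRNA-related loci (0.29). *Imp3* changed by -0.27 (-0.59 to 0.047) and both its shNAT10 libraries were below shNC, while *Imp4* and *Mphosph10*, the proteins that join IMP3 in a stable complex, changed by 0.056 (-0.35 to 0.46) and 0.058 (-0.24 to 0.35). The values of *Imp3* and its partners thus lay on both sides of 0, all with intervals that include 0. Leaving out shNC-1 took *Imp3* past the rule (-0.41), and *Imp3* has 1 near-identical copy.

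Of the 14 other processome factors none (0) was called by limma. Among the helicases, *Ddx10* and *Ddx52* changed by 0.0087 (-0.21 to 0.23) and 0.13 (-0.25 to 0.52). The GTPase gene *Bms1* changed by 0.17 (-0.18 to 0.53) and the methyltransferase gene *Emg1* by 0.0088 (-0.21 to 0.23). *Utp3*, with 0.021 (-0.18 to 0.22), had the narrowest interval of the 48 genes. A further 5 genes of structural proteins, *Utp14a*, *Nop14*, *Noc4l*, *Nol6* and *Dcaf13*, had values from -0.13 to -0.0053. For *Krr1*, *Wdr46*, *Nol10* and *Utp20* the values ran from 0.15 to 0.34. The groups did not overlap for 4 of the 14 genes, *Bms1*, *Krr1*, *Utp20* and *Utp3*, each with shNAT10 above, where the share over all genes was 23.9%. Without shNC-2 the change of *Krr1* was 0.33 and passed the rule.

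*Utp20*, a long helical-repeat scaffold, was chosen after its values were seen, for the spread within shNC. It measured 7.02 and 4.90 FPKM (shNC) against 7.26 and 7.60 FPKM (shNAT10), giving a log2 fold change of 0.34 ± 0.20 (SE), 95% interval -0.19 to 0.86 and adjusted p = 0.485 by limma. The shNC-1 library lay close to both shNAT10 libraries and shNC-2 lay below all. Without shNC-1 its change was 0.59 and passed the rule, and without shNC-2 it was 0.080. *Utp20* was also called by limma-voom with an adjusted p of 0.138. *Noc4l* showed a like spread in both groups, with 10.5 and 6.62 FPKM (shNC) against 9.45 and 6.78 FPKM (shNAT10). For *Noc4l* the number 1 library of each group was the higher.

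The late 40S factors act on the particle as it leaves the nucleolus and matures in the cytoplasm, and 2 of these 6 genes were called lower (background 7.83%) and 0 higher. *Ltv1*, which encodes a factor that is released from the 40S precursor late in its maturation, fell, with 7.90 and 7.20 FPKM (shNC) against 4.99 and 4.65 FPKM (shNAT10), giving a log2 fold change of -0.64 ± 0.12 (SE), 95% interval -0.95 to -0.33 and adjusted p = 0.122 by limma. Both shNAT10 libraries were below both shNC libraries, and *Ltv1* was called lower under all 15 alternatives, from -0.70 to -0.57 on leaving out a library, with an adjusted p of 0.0245 by limma-voom. *Pno1*, which encodes the partner of the endonuclease NOB1, fell, with 44.1 and 38.1 FPKM (shNC) against 31.8 and 28.9 FPKM (shNAT10), giving a log2 fold change of -0.43 ± 0.11 (SE), 95% interval -0.73 to -0.13 and adjusted p = 0.196 by limma. Its groups did not overlap, and its adjusted p by limma-voom was 0.0296. The *Pno1* call was lost without shNC-1 (-0.33), without shNAT10-1 (-0.50), without shNAT10-2 (-0.37) and without the trend. Of the 9 pan-leukocyte markers, 5 were also called lower in shNAT10 (background 7.83%). Their summed level was 379 to 404 FPKM in shNC and 331 to 342 in shNAT10. Of the 6 mast cell markers tested, 3 were lower and 1 was higher, with the values given above. The part of these markers in the falls of *Ltv1* and *Pno1* was not tested.

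The other 4 late factors were not called. *Nob1*, the nuclease that makes the mature 3′ end of 18S rRNA, changed by -0.14 (-0.42 to 0.13), with shNAT10 below shNC in both libraries. *Tsr1*, a GTPase-like factor, and *Dimt1*, which dimethylates adenosines near the 3′ end of 18S rRNA, changed by 0.13 (-0.11 to 0.36) and 0.21 (-0.16 to 0.57), with shNAT10 above. Of the exon bases of *Tsr1* and *Dimt1*, 32.3% and 31.9% are shared with a gene on the other strand, and whether counting used the strand is not given in the sources used here. *Rrp12*, an export factor, was chosen after its values were seen. It had the widest spread of the 48 genes, with 6.90 and 3.14 FPKM (shNC) against 3.56 and 4.08 FPKM (shNAT10) and a log2 fold change of -0.28 (-1.31 to 0.74). The single high library was shNC-1: without it the change was 0.27, and without shNC-2 it was -0.84 and passed the rule.

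**Figure D3:**
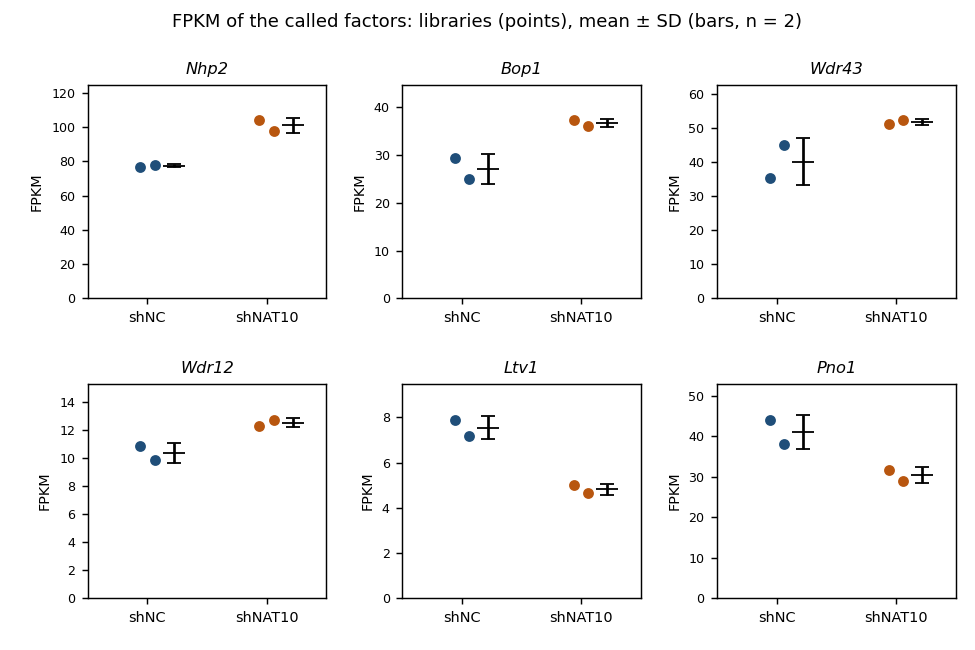
FPKM (vertical axes, from 0) of the 6 called genes in each library (points), with the mean and SD of n = 2 beside them. *Nhp2*, *Bop1*, *Wdr43* and *Wdr12* are higher and *Ltv1* and *Pno1* lower in shNAT10, and the points of the groups do not overlap.

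Of the 4 large-subunit factors, 2 were called higher (background 8.41%). *Bop1*, *Pes1* and *Wdr12* encode the PeBoW complex, which is needed to cut the internal spacer next to 28S rRNA. *Bop1* measured 29.4 and 24.9 FPKM (shNC) against 37.3 and 36.1 FPKM (shNAT10), giving a log2 fold change of 0.44 ± 0.11 (SE), 95% interval 0.14 to 0.73 and adjusted p = 0.189 by limma, with an adjusted p of 0.0168 by limma-voom. *Wdr12* measured 10.8 and 9.86 FPKM (shNC) against 12.3 and 12.7 FPKM (shNAT10), giving a log2 fold change of 0.27 ± 0.10 (SE), 95% interval 0.0025 to 0.54 and adjusted p = 0.298 by limma. For both genes the shNAT10 libraries were above the shNC libraries. *Pes1*, with the values given above, changed by -0.0051 (-0.21 to 0.20), and its groups overlapped. The ratio of *Bop1* to *Pes1* FPKM was 0.503 and 0.418 in shNC and 0.642 and 0.606 in shNAT10, and the difference between these genes was not tested. The *Bop1* call held under 12 of 15 alternatives and was lost without shNAT10-1 (0.41), without shNAT10-2 (0.46) and without the trend. The *Wdr12* call held under 7 of 15. It was lost without shNC-2 (0.20), shNAT10-1 (0.30) or shNAT10-2 (0.24), with a pseudocount of 1, with a mean FPKM of at least 1, without the trend, with the replicate number as a block and when scaled to the FPKM total outside rRNA-related loci. *Wdr12* has 2 near-identical copies. *Nop2*, a cytosine methyltransferase of 28S rRNA, changed by 0.24 (-0.018 to 0.49), without overlap, and passed the rule when scaled to fragments outside rRNA-related loci (0.29) and without shNC-1 (0.32). Of the 7 fibroblast and stroma markers tested, 3 were also called higher in shNAT10 (background 8.41%). The other 4, *Dcn* (0.090), *Col1a1* (-0.068), *Col1a2* (-0.064) and *Pdgfrb* (-0.16), were not called. The summed level, most of it *Dcn*, was 47.4 to 54.3 FPKM in shNC and 55.6 to 65.2 in shNAT10. The part of these markers in the rises of *Nhp2*, *Wdr43*, *Bop1* and *Wdr12* was not tested.

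Of the abundant nucleolar proteins none (0 of 3) was called by limma. *Ncl* changed by -0.035 (-0.25 to 0.18) and *Npm1* by -0.17 (-0.48 to 0.15), and both had overlapping groups. *Npm1* has 4 near-identical copies, all annotated as pseudogenes. *Nolc1*, a chaperone of snoRNPs also known as NOPP140, was chosen after its values were seen, as the largest rise that was not called. It measured 4.39 and 6.07 FPKM (shNC) against 6.15 and 8.13 FPKM (shNAT10), giving a log2 fold change of 0.45 ± 0.23 (SE), 95% interval -0.15 to 1.04 and adjusted p = 0.418 by limma. The lower shNAT10 library was just above the higher shNC library, and *Nolc1* was called by limma-voom with an adjusted p of 0.112. *Thumpd1*, the adaptor that brings NAT10 to tRNA, measured 30.3 and 32.6 FPKM (shNC) against 31.5 and 32.5 FPKM (shNAT10), giving a log2 fold change of 0.024 ± 0.086 (SE), 95% interval -0.20 to 0.25 and adjusted p = 0.918 by limma. All 4 libraries lay close together with overlapping groups.

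**Figure D4:**
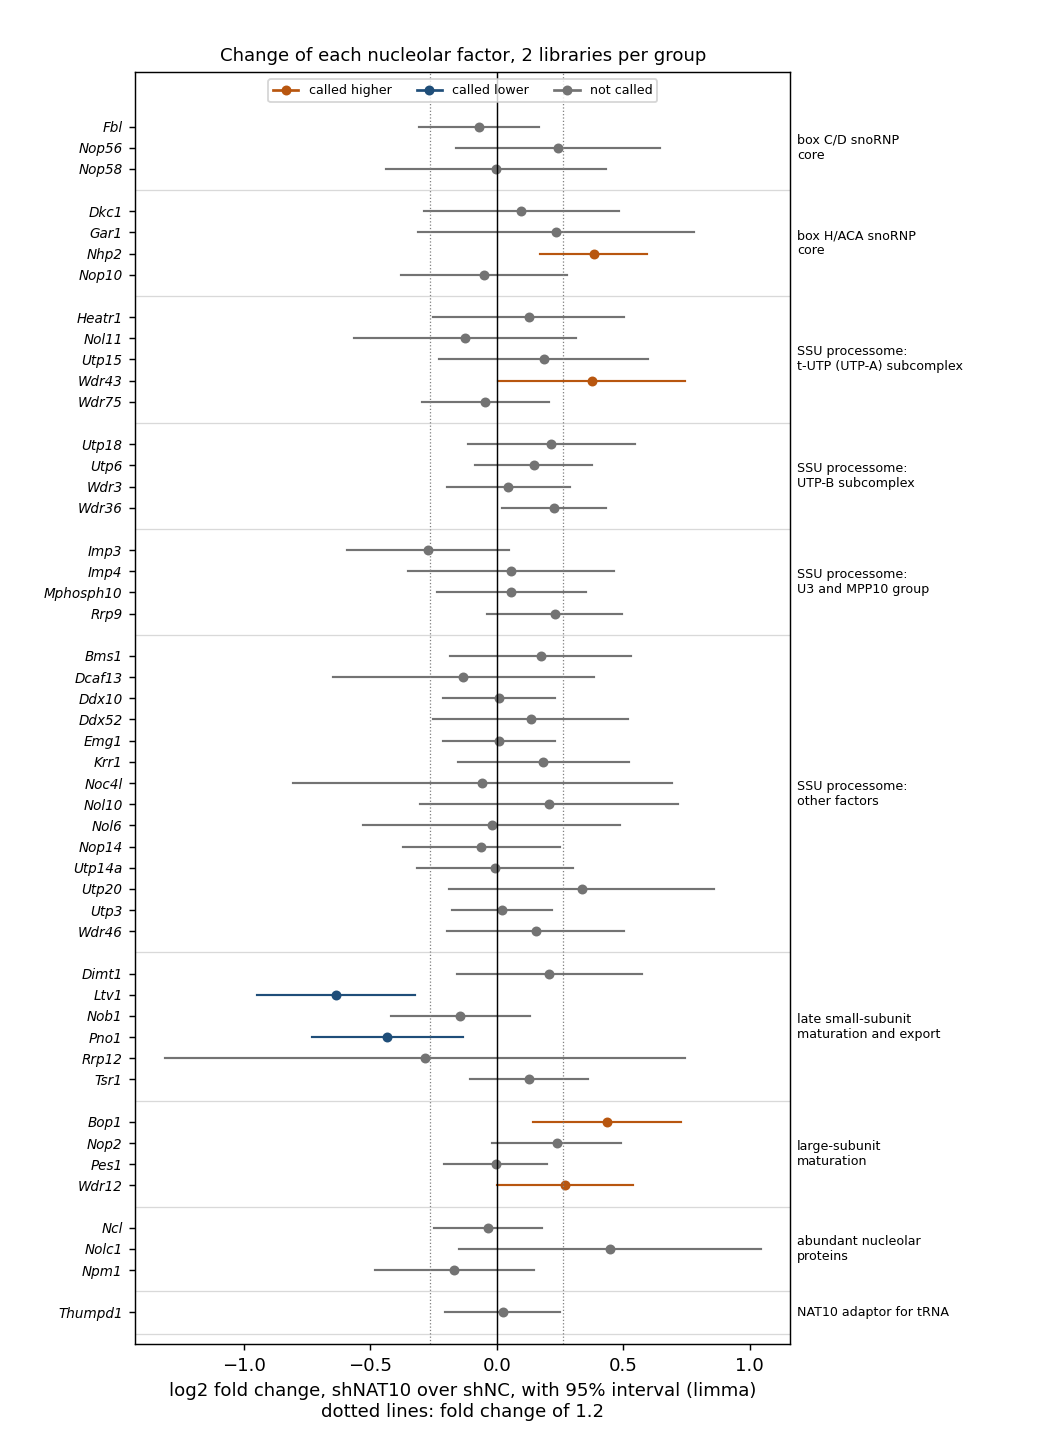
Log2 fold change of shNAT10 over shNC (horizontal axis) with its 95% interval from limma, for each of the 48 genes by role, called genes in colour. Dotted lines mark a fold change of 1.2. Most intervals include 0, and the 2 genes called lower stand in the late small-subunit group.

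The median size of the difference between the 2 shNC libraries was 0.173 on the log2 scale over the 48 genes, against 0.110 between the shNAT10 libraries and a median group difference of 0.14. Over all genes tested the shNC libraries differed by a median of 0.269, and over those with a mean of at least 1 FPKM by 0.201. For 27 of 48 genes the shNC libraries differed by more than the groups did, and the share over all genes was 50.6%.

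**Figure D5:**
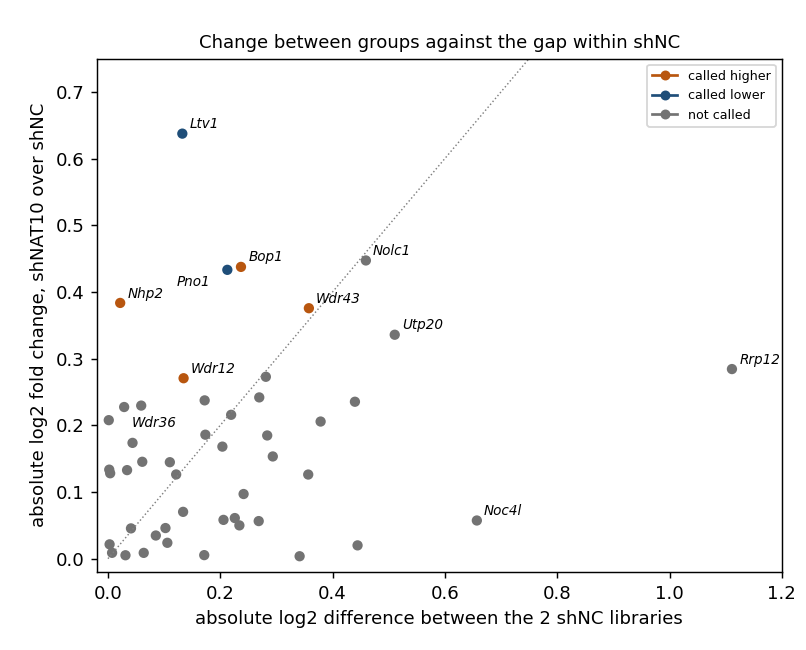
Absolute log2 fold change between groups (vertical axis) against the absolute log2 difference between the shNC libraries (horizontal axis), 1 point per gene. On the dotted line both are equal, and *Ltv1* and *Nhp2* lie far above it while *Rrp12* and *Noc4l* lie far below.

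Other genes of ribosome biogenesis were read from a list of 95 factors that are not among the 48, of which 93 were in the table and 92 were tested. Of these, 7 were called higher and 4 lower, 7.61% and 4.35%, against a background of 8.41% and 7.83%, with 0 at an adjusted p under 0.05 by limma and 11 at an unadjusted p under 0.05 (background 16.6%). Scaled to fragments outside rRNA-related loci, 12 were called higher (background 10.1%) and 3 lower (background 6.13%), and limma-voom called 11 higher (background 10.1%) and 7 lower (background 9.34%). The median log2 fold change was 0.016. Among 30 genes listed as further processome and 40S factors, *Bysl* and *Noc2l*, the second of which acts on the large-subunit precursor, rose (0.52 and 0.29 on the log2 scale) and *Ngdn* and *Utp23* fell (-0.42 and -0.36). *Bysl* encodes bystin, which like PNO1 and LTV1 acts on the late 40S precursor, and it measured 4.66 and 4.96 FPKM (shNC) against 6.80 and 7.09 FPKM (shNAT10). Late factors were therefore called in both directions by limma, the rise being that of *Bysl* alone. Of the same 30 genes, *Riok1* (-0.44) and *Riok3* (-0.29) were called lower and *Tbl3* (0.41) higher by limma-voom and not by limma. Among 48 factors of the large subunit, *Wdr18* and *Nmd3* rose (0.34 and 0.30) and *Nop53* fell (-0.33). Among 14 genes of the nuclear exosome and its partners, *Exosc2*, *Xrn2* and *Skiv2l2* (now *Mtrex*) rose (0.42, 0.36 and 0.44) and *Mphosph6* fell (-0.66).

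Promoter sequence is a feature that the choice of genes did not use. The letters CACGTG, the E-box that MYC and its relatives can bind and that reads the same on both strands, were searched in windows from 250 bases before to 50 bases after each annotated start in RefSeq (GRCm38.p6). A window was given for 40 of the 48 genes, and 11 of the 40 held the motif (27.5%), against 8.09% of 27025 genes with a window and 8.91% of 17492 protein-coding genes. Genes with the motif were *Imp4*, *Ltv1*, *Nol11*, *Nop2*, *Pes1*, *Pno1*, *Tsr1*, *Utp18*, *Utp20*, *Wdr43* and *Wdr46*. The share was given as a description and no test was run. Of the 6 called genes, 5 had a window and 3 held the motif, *Ltv1* and *Pno1*, which fell, and *Wdr43*, which rose. Their windows are shown because the same letters stand near the start of genes that moved in both directions, with the motif in capitals and each sequence read along its gene.
*Ltv1* (chr10:13193088-13193387, minus strand): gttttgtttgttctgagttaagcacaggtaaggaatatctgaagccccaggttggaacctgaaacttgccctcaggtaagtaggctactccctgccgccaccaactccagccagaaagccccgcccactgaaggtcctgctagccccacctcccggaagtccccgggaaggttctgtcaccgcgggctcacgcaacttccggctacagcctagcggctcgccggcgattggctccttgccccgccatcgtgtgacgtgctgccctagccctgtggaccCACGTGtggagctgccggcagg
*Pno1* (chr11:17211540-17211839, minus strand): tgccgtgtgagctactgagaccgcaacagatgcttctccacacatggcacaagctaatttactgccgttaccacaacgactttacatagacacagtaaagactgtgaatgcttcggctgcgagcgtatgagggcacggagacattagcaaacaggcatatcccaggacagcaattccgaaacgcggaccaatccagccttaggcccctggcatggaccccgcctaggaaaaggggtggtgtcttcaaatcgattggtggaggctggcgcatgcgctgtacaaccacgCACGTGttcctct
*Wdr43* (chr17:71615965-71616264, plus strand): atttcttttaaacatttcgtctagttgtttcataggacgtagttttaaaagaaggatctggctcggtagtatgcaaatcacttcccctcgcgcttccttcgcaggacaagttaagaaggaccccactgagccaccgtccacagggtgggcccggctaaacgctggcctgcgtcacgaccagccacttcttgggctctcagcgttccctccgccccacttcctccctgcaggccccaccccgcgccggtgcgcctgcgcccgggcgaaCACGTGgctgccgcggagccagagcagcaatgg
In these the motif began 28, 37 and 17 bases after the annotated start. The 11 genes with the motif had a median log2 fold change of 0.13, with 1 called higher and 2 lower. The 29 without it had a median of 0.058, with 2 called higher and 0 lower. Over all genes tested 8.41% were called higher and 7.83% lower, and these sets were not tested against each other. A match of letters shows neither binding nor a cause of these values.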

How the data were processed

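An FPKM table of 53465 genes over 4 libraries was deposited by the authors, and libraries were grouped by their titles, 2 per group. The authors trimmed with cutadapt, aligned with HISAT2 to mm10 and used DESeq2, per the labels. The counting program and annotation are not given in the sources used here. The labels describe mRNA isolation and the study's methods an rRNA depletion. A second deposited table holds the authors' fold changes and p-values for 13023 genes and was not used. Columns of single libraries left out numbered 0.

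From the FPKM, log2(FPKM + 0.1) was compared with limma 3.58.1 (lmFit, then eBayes with a trend, under R 4.3.3) in two-sided tests, without a term for the replicate number. Genes with a mean under 0.1 FPKM were left out, which kept 20116. On this scale the change of low genes is understated. The adjusted p is Benjamini-Hochberg over all genes tested. Intervals are 95% and cover the spread between these libraries only. Dividing by each library's step, with GENCODE M21 exon lengths, turned 96.3% of values under 50 fragments into whole numbers within a tolerance of 0.02, where chance gives 4%, and limma-voom was run on these fragments. Copies and overlaps came from blastn 2.17.0 and GENCODE M21. Python 3.11.15 was used for the rest. Scripts were tested on simulated data with changes larger than those of the called genes, so that check does not cover changes of their size.

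The 48 genes, the role groups and the other lists were chosen with earlier results of these data known. Values per library are given for called genes, the 5 highest by mean FPKM, *Fbl*, *Dkc1*, *Thumpd1* and *Heatr1*, and others where stated. Of the wider list, every called gene was named. Alternatives were pseudocounts of 1 and 0.01, no filter, a mean FPKM of at least 1, quantile, median-ratio and 2 rRNA-free scalings, limma without the trend, the replicate block, each library left out and limma-voom. Other assays were not analysed here.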

Additional observations from a re-analysis of the deposited data

How the results depend on the processing

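The precision is set by 2 libraries per group, and leaving out one leaves a lone library that is assumed to vary like the others. Of the 15 alternatives, limma without the trend called 0 of the 48 genes higher and 1 lower, and 3 and 1 of the wider list, against 7.64% and 6.04% of all genes. Scaling to fragments outside rRNA-related loci called 7 higher, and 12 of the wider list, with a median log2 fold change of the 48 of 0.11. That median was 0.10 when scaled to the FPKM total outside these loci. limma-voom called 11 of the wider list higher and 7 lower. The cause of these moves was not tested.

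On leaving out a library, 1 to 6 of the 48 were called higher and 1 to 3 lower, 2 to 8 of the wider list higher and 1 to 7 lower, and 1912 to 3472 of all genes, with 1036 to 1784 higher and 876 to 1688 lower. The lowest counts over all genes came without shNAT10-1. The median of the 48 ranged from 0.024 to 0.10 and *Nat10* from -1.35 to -0.83, called without shNC-1 or shNC-2 and not without either shNAT10 library.

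The direction of 41 of the 48 genes held under every alternative with all libraries. Small changes turned under quantile normalization for *Nop58* (0.030), *Utp14a* (0.018) and *Pes1* (0.0023), under scaling to the FPKM total outside rRNA-related loci for *Nop58* (0.039), *Nol6* (0.022), *Utp14a* (0.038), *Pes1* (0.038) and *Ncl* (0.0087), and under scaling to fragments outside rRNA-related loci for *Nop58* (0.054), *Nop10* (0.0073), *Wdr75* (0.012), *Nol6* (0.036), *Utp14a* (0.052), *Pes1* (0.052) and *Ncl* (0.023). On leaving out a library 20 of the 48 turned, with log2 fold changes from -0.27 to 0.0084 for *Dcaf13*, -0.030 to 0.048 for *Ddx10*, -0.024 to 0.29 for *Ddx52*, -0.037 to 0.23 for *Dkc1*, -0.044 to 0.062 for *Emg1*, -0.052 to 0.30 for *Heatr1*, -0.078 to 0.19 for *Imp4*, -0.045 to 0.16 for *Mphosph10* and -0.077 to 0.0079 for *Ncl*. They ran from -0.39 to 0.27 for *Noc4l*, -0.24 to 0.20 for *Nol6*, -0.17 to 0.067 for *Nop10*, -0.17 to 0.052 for *Nop14*, -0.17 to 0.17 for *Nop58*, -0.023 to 0.013 for *Pes1*, -0.84 to 0.27 for *Rrp12*, -0.029 to 0.077 for *Thumpd1*, -0.091 to 0.080 for *Utp14a*, -0.024 to 0.11 for *Wdr3* and -0.12 to 0.024 for *Wdr75*. None of the 6 called genes turned.

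Over all 20116 genes tested the replicate numbers did not pair the libraries: the correlation of same-numbered deviations was 0.0071. Pairing over the 48 genes alone was not tested. For some of them, such as *Noc4l* and *Nop58*, same-numbered libraries of both groups deviated alike, and for others, such as *Heatr1*, they did not. With the replicate number as a block 4 of the 48 were called higher and 2 lower, with *Nolc1* in place of *Wdr12*, and 3114 of all genes were called.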

Other observations

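Guide RNAs that work with these proteins were thinly covered. The 10 entries for U3 snoRNA genes (*Rnu3a* and *Rnu3b1* to *Rnu3b4*) had 2 fragments in shNAT10-2 and 0 in the other 3 libraries. *Snord13*, the U13 snoRNA, which pairs with 18S rRNA next to a cytidine that NAT10 acetylates, had 142 and 242 fragments in shNC and 127 and 146 in shNAT10. Its level was 116 and 196 FPKM in shNC and 97.3 and 91.6 in shNAT10, a log2 fold change of -0.68 ± 0.26 (SE) with adjusted p = 0.309 by limma, from -1.05 to -0.30 on leaving out a library. It was not called, and its shNAT10 libraries were below both shNC libraries. *Snord118*, the U8 snoRNA of large-subunit processing, had 39 and 77 fragments in shNC and 55 and 60 in shNAT10, with overlapping groups. *Rmrp* was at 0 in all libraries.

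Several of the 48 genes carry snoRNA genes in their introns. In 6 of them (*Dkc1*, *Ncl*, *Nop56*, *Nop58*, *Tsr1* and *Wdr43*) 18 snoRNA genes on the same strand summed to 55 and 62 fragments in shNC and 44 and 57 in shNAT10, and 7 of the 18 were at 0 throughout. *Snord70* in *Nop58* had the most, 60 fragments over the 4 libraries, which is too few to compare a hosted snoRNA with its host.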
